A study of Mus musculus with 6 samples.

Results

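The synaptotagmins described here were 10 genes of one family, Syt1, Syt2, Syt4, Syt5, Syt7, Syt9, Syt11, Syt12, Syt13 and Syt17. They were taken by gene symbol from the 24421 genes listed for each library of an RNA-seq comparison of Sox9 KO with control mice, in sorted cells of the olfactory bulb (OB) that the labels call astrocytes. All 10 were counted in all 6 libraries. Of the 10, 9 were lower in Sox9 KO than in control, Syt11 and Syt17 by more than 10-fold, and Syt2 was counted too rarely to show a difference.

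Synaptotagmins are membrane proteins of secretory vesicles. Most carry a transmembrane segment and a pair of C2 domains, and in several members these domains bind calcium and start the fusion of the vesicle with the plasma membrane together with the SNARE proteins. Other members lack the residues that hold calcium and act in vesicle traffic without it. In the brain the family is best known for transmitter release by neurons, and calcium-dependent release from astrocytes has also been attributed to members of it.

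The 3 control mice carried Sox9+/+ (C57BL/6J) and the 3 KO mice Sox9fl/fl, and the labels give the strain of all 6 as C57BL/6. All were adult males whose OBs had been injected with AAV-GFAP-iCre-P2a-TurboRFP, a virus in which the astrocyte promoter GFAP drives Cre recombinase and the red fluorescent protein TurboRFP, so the controls carried Cre and virus too. Cells positive for TurboRFP were collected into lysis buffer by flow sorting 4 weeks later, and each library came from the total RNA of 1 mouse. Between 18242129 and 86906527 reads fell on genes per library, and values are normalized counts, that is, reads divided by 1 size factor per library.

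Sox9, the transcription factor deleted here, was at 5185, 6562 and 4921 normalized counts in control replicates 1, 2 and 3 and at 52.6, 64.3 and 57.7 in KO replicates 1, 2 and 3. The difference, KO minus control on the log2 scale, was −6.55 (SE, the standard error, 0.147, limma adjusted p = 2.47e-09 by Benjamini-Hochberg). These totals take in the deleted and the remaining exons alike. The label astrocyte was checked against marker lists. All 12 astrocyte markers were above 0 in every library, but their summed level was 511597 to 568658 in control and 37052 to 47674 in KO. The summed level of 14 microglia and macrophage markers was 197647 to 230010 in control and 744212 to 828245 in KO. The KO libraries thus held more RNA of microglia and macrophage markers than of astrocyte markers, against the label astrocyte, and they are called KO libraries and not KO astrocytes here. In bulk samples, fewer cells of a type and less RNA per cell cannot be told apart.

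Promoter sequences were looked up because Sox9 belongs to the SOX factors, which bind short AT-rich sites around the letters ACAAAG or ACAATG. RefSeq promoters of mm10 (GRCm38.p6), spanning 250 bases before to 50 bases after a start site, were given for 4 of the 10 members, Syt1, Syt2, Syt9 and Syt11, in 6 entries. ACAAAG or ACAATG, searched on both strands, occurred in 1 of these 6 promoters, against 9394 of all 32851 promoters (28.6%). The match was in the promoter of one of the start sites of Syt1, within the span of the gene and outside its annotated exons, at chr10:109009170-109009199 on the minus strand. The 30 bases around it are shown 5′ to 3′ with the match in capitals. The capitals are ACAAAG read on the opposite strand and begin 76 bases before the start site.
Syt1: ctctgatctaagCTTTGTtttcctattatt
A match of these letters is a description of the sequence, not a binding site. Their absence from the 300 bases of the Syt11 promoter says only that these letters are not in that window. That window, chr3:88772550-88772849, lies within the annotated span of Syt11, and no entry was given at the 5′ end of that span.

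Over all 10 members, 9 were called lower and 0 higher in KO, at an adjusted p of 0.05 and a 1.5-fold change in limma. None was higher at an unadjusted p of 0.05 either, nor in edgeR or DESeq2. Among the 18413 genes tested, 28.8% were called lower and 22.2% higher. Every KO library was below every control library in 9 of the 10 members, against 34.7% of the genes tested. The median log2 fold change of the members was −2.22, and that of all genes tested was −0.07. The number of calls over all genes depended on the scaling between libraries, with 5299 lower and 4090 higher as reported, 4100 and 5380 after quantile normalization, and 6597 and 2630 with equal totals without the ribosomal RNA precursor Rn45s. Of the 10 members, 7 were called lower after quantile normalization and 9 with equal totals.

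**Figure D1:**
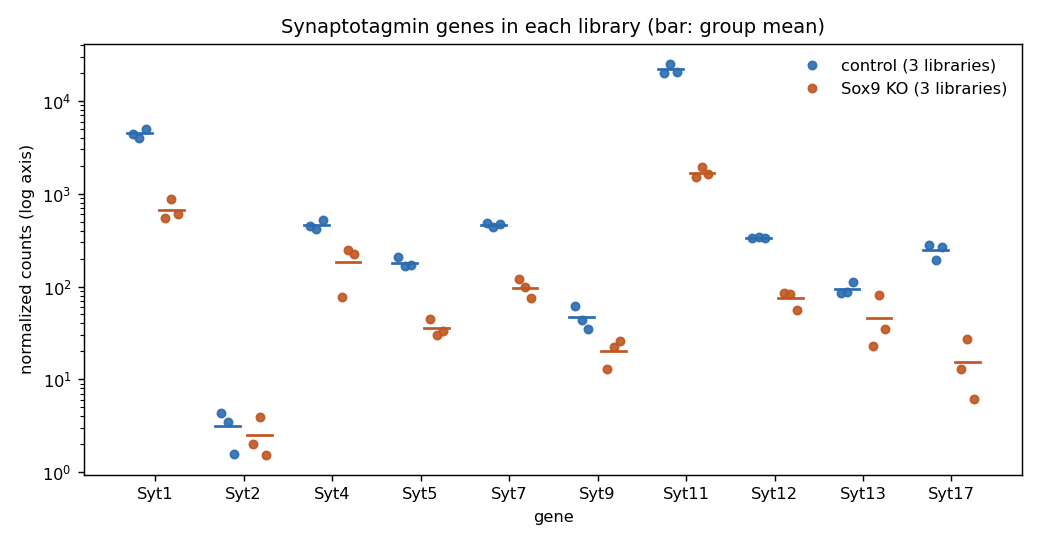
Normalized counts (log axis) of the 10 members in each of the 3 control (blue) and 3 Sox9 KO (orange) libraries, with a bar at each group's mean. The groups are apart in 9 members and overlap in Syt2, and heights of different genes are not comparable because the genes differ in length.

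Syt1, Syt2 and Syt9 are the fast calcium sensors of synchronous transmitter release. Syt1 (chr10:108497650-109010982, minus strand), the main sensor of forebrain synapses, was at 4431, 3983 and 5023 normalized counts in control and at 542, 875 and 606 in KO. All KO libraries were far below the lowest control. The mean was 4479 ± 522 in control and 674 ± 177 in KO (± SD over 3 libraries each), and the log2 fold change was −2.75 (SE 0.168, limma adjusted p = 2.79e-07). Syt9 (chr7:107370728-107548656, plus strand), a fast sensor of a smaller set of neurons, was at 61.4, 44.0 and 34.7 in control and at 12.9, 22.5 and 25.8 in KO. All KO libraries were below all controls, with 13 to 57 reads each, and the log2 fold change was −1.17 (SE 0.411, limma adjusted p = 0.0299). This call was lost when control replicate 1 (adjusted p = 0.112, limma), control replicate 2 (0.0694) or KO replicate 1 (0.101) was left out, and after quantile normalization (log2 fold change −0.29, adjusted p = 0.534, limma). Syt2 (chr1:134646677-134762593, plus strand), the sensor of the brainstem, spinal cord and motor nerve endings, was counted with 3, 5 and 1 reads in control and 2, 10 and 1 reads in KO. Normalized, its levels were 4.38, 3.44 and 1.58 in control and 1.99, 3.95 and 1.52 in KO. The groups overlapped, and the log2 fold change of −0.24 had a 95% confidence interval from −1.71 to 1.23 (adjusted p = 0.766, limma), so a difference was not detectable at this depth. Its sign turned to 0.60 after quantile normalization.

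Syt7 and Syt5 also bind calcium. Syt7 (chr19:10389090-10453180, plus strand), a slow sensor of high calcium affinity that serves asynchronous release, facilitation and the fusion of lysosomes with the plasma membrane, was at 481, 443 and 467 normalized counts in control and at 120, 97.9 and 74.4 in KO. The controls lay close together, 464 ± 18.98 (SD, n = 3), and far above the KO libraries, with a log2 fold change of −2.26 (SE 0.205, limma adjusted p = 4.93e-06). Syt5 (chr7:4539765-4547541, minus strand), a member found on dense-core vesicles, was at 206, 164 and 169 in control and at 44.7, 30.002 and 33.4 in KO. Its log2 fold change was −2.30 (SE 0.269, limma adjusted p = 3.27e-05), and −1.53 after quantile normalization.

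Syt11 and Syt4 are close relatives in which a calcium-binding aspartate of the first C2 domain is replaced by serine. Syt11 (chr3:88744700-88775164, minus strand), which acts in vesicle traffic and membrane retrieval, was the member with the most reads, 13710, 36779 and 12959 in control and 1508, 4912 and 1069 in KO. After normalization these were 20035, 25311 and 20426 in control and 1497, 1939 and 1624 in KO. The groups were far apart, with 21924 ± 2940 in control and 1687 ± 228 in KO (± SD over 3 libraries each), a 13.0-fold difference. The log2 fold change was −3.70 (SE 0.124, limma adjusted p = 9.24e-09), and leaving out single libraries gave −3.80 to −3.59. Syt4 (chr18:31437808-31447406, minus strand), a protein of dense-core vesicles whose gene responds to neuronal activity, was at 454, 413 and 525 in control and at 77.4, 247 and 223 in KO. KO replicate 1 was well below the other KO libraries. The means were 464 ± 56.6 in control and 182 ± 91.7 in KO (± SD over 3 libraries each), and the log2 fold change was −1.50 (SE 0.370, limma adjusted p = 0.00508). Without KO replicate 1 it was −0.97 (adjusted p = 0.000977, limma).

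Syt12, Syt13 and Syt17 are members whose vesicle or membrane functions are less well known, and Syt12 and Syt13 lack calcium-binding residues. Syt12 (chr19:4445908-4477447, minus strand) was at 338, 341 and 329 normalized counts in control and at 84.4, 83.7 and 56.2 in KO, with a log2 fold change of −2.18 (SE 0.218, limma adjusted p = 1.05e-05). The spread of its controls was the smallest of the members relative to the mean, 336 ± 6.09 (SD, n = 3). After quantile normalization its log2 fold change was −1.58. Syt17 (chr7:118380717-118448222, minus strand), which lacks the transmembrane segment, was at 281, 191 and 266 in control and at 12.9, 27.2 and 6.08 in KO. It had the largest change of the 10 as reported, from 246 ± 48.0 to 15.4 ± 10.8 (± SD over 3 libraries each), a 16.0-fold difference, or −4.12 on the log2 scale (SE 0.466, limma adjusted p = 2.54e-05). Its KO values rest on 13, 69 and 4 reads, and after quantile normalization its log2 fold change of −3.47 was smaller than that of Syt11, −4.08, as it was without KO replicate 3, −3.62 against −3.68. Syt13 (chr2:92915098-92956058, plus strand) was at 84.8, 86.7 and 112 in control and at 22.8, 80.9 and 34.9 in KO. KO replicate 2 was just below the lowest control and apart from the other KO libraries, and the log2 fold change was −1.20 (SE 0.431, limma adjusted p = 0.0331). The call of Syt13 was lost when any library other than KO replicate 2 was left out (adjusted p from 0.0625 to 0.11, limma), in edgeR (0.0867), in DESeq2 (0.0575) and after quantile normalization (0.447, limma). Without KO replicate 2 its log2 fold change was −1.69. KO replicate 2, the most deeply sequenced library, held the highest KO value in 6 of the 10 members. The same count over all genes was not made, and the part of depth was not tested.

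Annotated genes overlap the exons of 3 members on the other strand, and the sources used here do not give the strand used in counting. Gm26658 overlaps 14.5% of the exon bases of Syt4, Gm26859 5.13% of those of Syt7 and A930001C03Rik 17.2% of those of Syt12. A930001C03Rik was counted with 22, 48 and 35 reads in control and 1, 5 and 0 in KO, and Syt12 with 231, 496 and 209 in control and 85, 212 and 37 in KO. The part of these neighbours in the counts of Syt4, Syt7 and Syt12 was not tested.

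To compare levels between members, normalized counts were divided by the length of the merged exons in kilobases. In control, Syt11 came first with 4212 ± 565 normalized counts per kilobase (SD, n = 3), followed by Syt1 with 537 ± 62.6 and Syt4 with 119 ± 14.5. Next were Syt5 (75.5), Syt7 (61.9), Syt12 (60.7), Syt17 (47.3), Syt13 (25.1), Syt9 (11.7) and Syt2 (0.41). Only Syt7 and Syt12 overlapped among neighbours in this order. In KO the first 3 kept their places, with Syt11 at 324 ± 43.7, Syt1 at 80.9 ± 21.2 and Syt4 at 46.9 ± 23.6 per kilobase. Syt5 (15.1), Syt12 (13.5), Syt7 (13.0), Syt13 (12.3), Syt9 (5.13) and Syt17 (2.96) followed, with overlap between neighbours among these 6, and Syt2 (0.33) was last. Syt17 thus moved from place 7 to place 9.

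As a share of the summed level per kilobase of the 10 members, Syt11 was at 80.2, 85.2 and 79.4% in control and at 66.2, 60.6 and 63.2% in KO. Syt1 was at 11.1, 8.37 and 12.2% in control and at 14.96, 17.1 and 14.7% in KO. The groups did not overlap in either, the share of Syt11 being smaller and that of Syt1 larger in KO. Syt4 was at 2.34% in control and 8.84% in KO on average, also without overlap. The shares of Syt2, Syt5, Syt7, Syt9, Syt12 and Syt13 were larger in KO without overlap too. Shares add up to a fixed total, so a smaller share of Syt11 leaves larger shares to others. Syt17 went from 0.934% to 0.553%, with groups that overlapped. These shares are descriptions with no test, and 3 against 3 libraries cannot give a two-sided exact permutation p below 0.1.

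**Figure D2:**
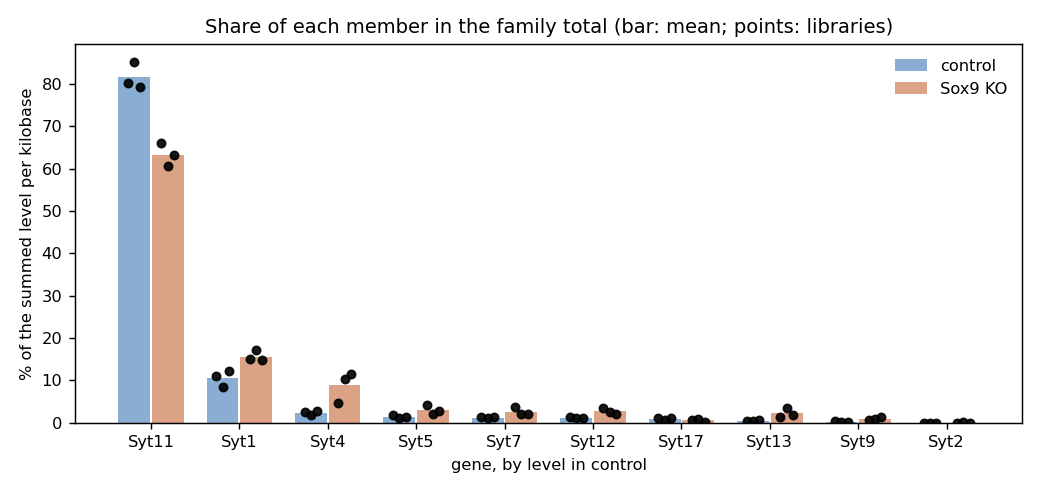
Share of each member in the summed normalized counts per kilobase of the 10 members, in percent, with bars from 0 at the group mean and points for the 3 control and 3 Sox9 KO libraries. The mean share of Syt11 is 81.6% in control and 63.3% in KO, and that of Syt1 is 10.5% and 15.6%.

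The marker lists of cell types changed in both directions. All 12 astrocyte markers were called lower, the median log2 fold change being −3.97, and their summed level was 12.9-fold lower in KO. Of 18 neuron markers, 15 were called lower and 3 neither, with a median of −2.18, and their summed level was 9944 to 13456 in control and 1575 to 2688 in KO, 5.47-fold lower. No neuron marker other than Tbx21, a marker of mitral and tufted cells with 0 reads in KO replicate 2, was at 0 in a library. Slc1a2 gave 26.9 to 49.1% of the astrocyte sum and Gad2 21.9 to 29.6% of the neuron sum. Slc1a2 itself was 18.9-fold lower in KO, more than the sum, so its share of the sum was smaller in KO. Of the 14 microglia and macrophage markers, 13 were called higher and 1 lower, and their sum was 3.81-fold higher in KO. Of the smaller lists, all 7 oligodendrocyte and all 3 oligodendrocyte precursor markers were called lower, as were 4 of 5 mural and 3 of 4 olfactory ensheathing cell markers, with 1 mural and 1 ensheathing cell marker neither lower nor higher. Of 7 endothelial markers, 4 were called lower, 1 higher (Flt1, the most abundant, by 0.80 on the log2 scale) and 2 neither, and their sum was 1195 to 2046 in control and 1302 to 1705 in KO. The part of these cell types in the changes of the synaptotagmins was not tested.

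Each member was therefore also set against the summed markers of the same library. Per 1000 normalized counts of the astrocyte sum, Syt11 was at 36.7, 44.5 and 39.9 in control and at 40.4, 40.7 and 39.5 in KO. The groups overlapped, and the mean was 40.4 ± 3.93 in control and 40.2 ± 0.623 in KO (± SD over 3 libraries each). With the mean of the markers' log2 values in place of the sum, an alternative chosen after seeing the data, the groups overlapped too. The log2 change of Syt11 was then 0.159 in place of −0.0016. A sum without Slc1a2, whose share differed between the groups, was not made, so its part in the overlap of Syt11 was not tested. Per 1000 of the sum, Syt17 overlapped as well, at 0.457 ± 0.104 in control and 0.356 ± 0.212 in KO. The other 8 members were higher relative to the astrocyte sum in every KO library than in any control, and so were 90.2% of all genes tested, against 1.37% that were lower, so this count says nothing particular about the members. Among the 8 were Syt1 (8.31 ± 1.42 in control and 15.9 ± 2.12 in KO), Syt7 (0.857 ± 0.0693 and 2.37 ± 0.766) and Syt4 (0.861 ± 0.152 and 4.23 ± 1.86). Sox9 itself was lower on this scale, at 10.2 ± 1.15 in control and 1.39 ± 0.0368 in KO.

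Relative to the neuron sum, Syt1 was at 411, 400 and 373 per 1000 in control and at 274, 326 and 385 in KO. The groups of Syt1 overlapped, as did those of Syt4, Syt5, Syt7 and Syt12. The make-up of the neuron sum differed between the groups, Dcx being 25.0-fold lower in KO and the sum 5.47-fold. A sum without Dcx was not made, so its part in these overlaps was not tested. Syt11 was lower on this scale, from 1974 ± 523 in control to 836 ± 170 in KO, and so was Syt17, from 21.7 ± 3.77 to 6.84 ± 3.15 (± SD over 3 libraries each). Every KO library was below every control on this scale in 4.72% of the genes tested and above in 74.9%. Syt2, Syt9 and Syt13 were among those above, and Syt2 rests on 1 to 10 reads. With the mean of the markers' log2 values in place of the sum, an alternative chosen after seeing the data, the groups of Syt1 relative to the neuron markers no longer overlapped and its log2 change was −0.50 in place of −0.28. These ratios carry no test, and they describe the libraries and not the cells that made the RNA.

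**Figure D3:**
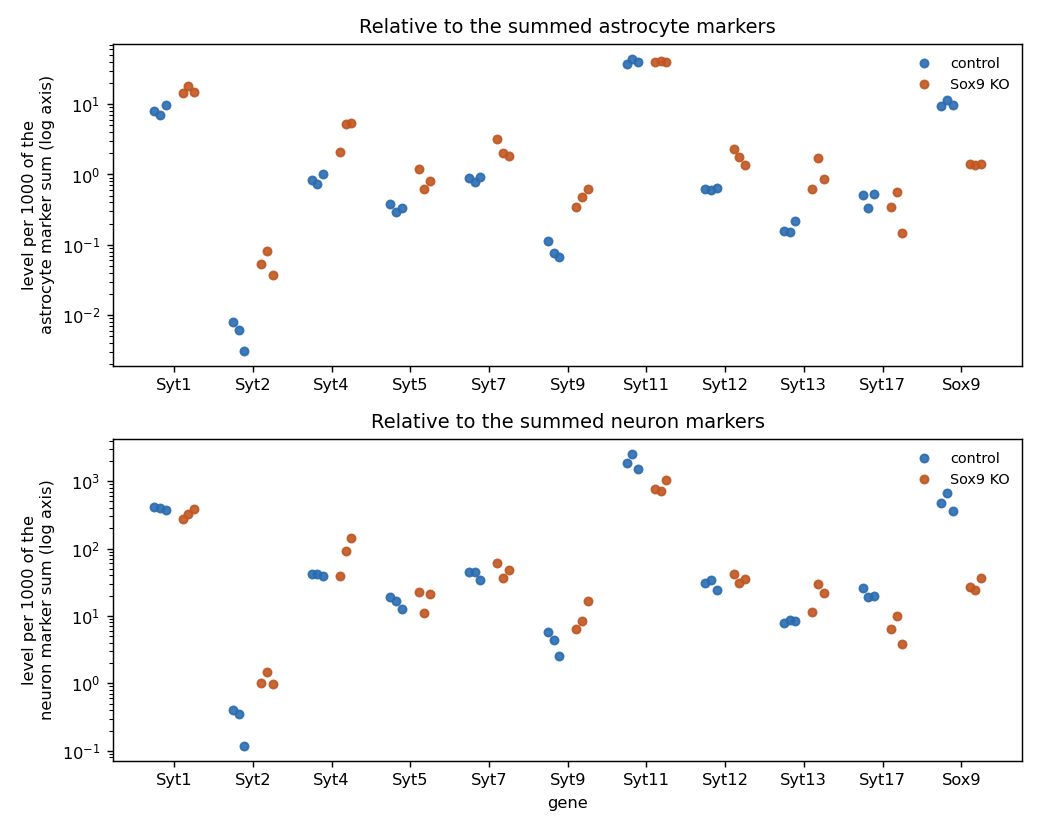
Level of each member and of Sox9 per 1000 normalized counts of the summed astrocyte markers (top) and of the summed neuron markers (bottom), both on log axes, with points for the 3 control (blue) and 3 Sox9 KO (orange) libraries. Syt11 lies at 36.7 to 44.5 in all 6 libraries in the top panel, and Sox9 is lower in KO in both panels. The astrocyte sum weights its markers by level, and their own log2 fold changes ran from −5.25 to −2.72.

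The other 7 synaptotagmin genes of the list were compared in the same fit. Their median log2 fold change was −3.01. Of the 7, 5 were called lower, 1 higher and 1 neither, next to 28.8% lower and 22.2% higher over all genes tested. Syt15 (1100 ± 142 normalized counts in control, 106 ± 21.4 in KO) and Syt6 (986 ± 83.6 and 88.6 ± 14.2) had log2 fold changes of −3.38 and −3.47. Syt10, a calcium sensor for the release of insulin-like growth factor 1 by OB neurons, went from 298 ± 58.5 to 17.1 ± 11.97, a log2 fold change of −4.24 (SE 0.451, limma adjusted p = 1.58e-05). The KO values of Syt10 rest on 14, 18 and 20 reads. Syt14 and Syt16 had log2 fold changes of −3.01 and −2.53. Syt3 was counted with 95, 192 and 48 reads in control and 104, 403 and 32 in KO, and its groups overlapped, with a log2 fold change of −0.26 and a 95% confidence interval from −1.19 to 0.67 (adjusted p = 0.608, limma). The sign of Syt3 turned after quantile normalization, to 0.52, and without KO replicate 3, to 0.20.

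Syt8 was the only synaptotagmin of the 17 called higher in KO. It was counted with 3, 1 and 0 reads in control and with 28, 34 and 15 in KO, so that every KO library was above every control. The log2 fold change was 3.36 (SE 0.714, limma adjusted p = 0.00207). With so few control reads its size depends on the pseudocount, 3.88 with 0.5 and 1.99 with 5, and it was 4.05 without control replicate 1.

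**Figure D4:**
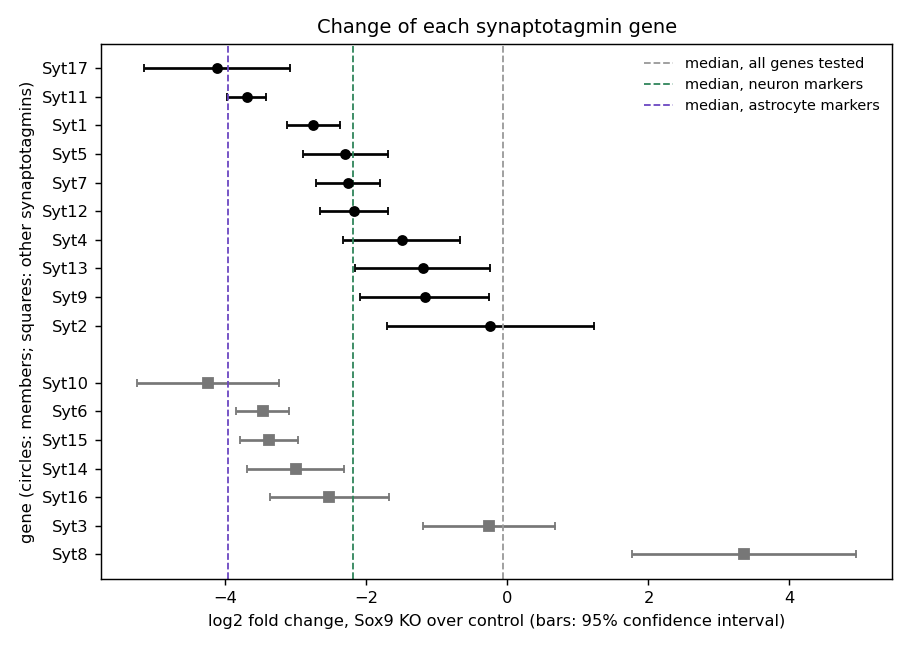
Log2 fold change of Sox9 KO over control with its 95% confidence interval for the 10 members (circles) and the 7 other synaptotagmins (squares), with dashed lines at the medians of all genes tested, of the neuron markers and of the astrocyte markers. The intervals of 9 members and of 5 others lie below 0, those of Syt2 and Syt3 include 0, and that of Syt8 lies above 0.

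Genes of the machinery that works with synaptotagmins were compared in the same fit. Of 14 relatives with C2 domains (Doc2, rabphilin, synaptotagmin-like, extended synaptotagmin and Mctp genes), 6 were called lower, 3 higher and 5 neither, with a median log2 fold change of −0.09, next to 28.8% lower and 22.2% higher over all genes tested. Esyt1, a tether between the endoplasmic reticulum and the plasma membrane, rose by 1.43 in log2 terms (SE 0.139, limma adjusted p = 8.33e-06). The values of Esyt2 (0.35) and Mctp1 (0.54) stayed under the 1.5-fold limit. These counts moved with single libraries, to 3 lower without control replicate 3 and to 1 higher without control replicate 1, control replicate 3 or KO replicate 2.

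Of 25 SNARE genes, which encode the proteins that pull membranes together, 24 were tested, with a median log2 fold change of 0.49. Of these, 5 were called lower, 11 higher and 8 neither, next to 28.8% lower and 22.2% higher over all genes tested. Those called lower included Vamp2 and Snap25, which belong to the SNARE complex of neuronal synaptic vesicles, and Vamp2 was named after its value was seen. Snap25, the SNARE gene with the highest mean, went from 8498 ± 1323 in control to 1554 ± 604 in KO, a log2 fold change of −2.51 (SE 0.220, limma adjusted p = 3.85e-06). Stx7 of endosomes and the widely expressed Vamp3, next in level, rose by 0.68 and 0.70 on the log2 scale. With equal totals without Rn45s, 5 and not 11 SNARE genes were called higher, and 2630 and not 4090 of the 18413 genes tested. The values of Stx7 and Vamp3 at that setting are not reported here.

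Of 24 release regulators, 23 were tested, with a median log2 fold change of −0.86. Of these, 12 were called lower, 3 higher and 8 neither, next to 28.8% lower and 22.2% higher over all genes tested. The 3 with the highest mean were Stxbp5 (tomosyn, an inhibitor of SNARE assembly), which rose by 1.06 on the log2 scale, and Nsf, the ATPase that takes SNARE complexes apart, and Stxbp3, with values of −0.33 and 0.37 that stayed under the 1.5-fold limit. Vamp7 and Cplx4 were listed at 0 in all 6 libraries and were the genes of these lists that were not tested. The median of the 10 synaptotagmins, −2.22, was lower than the medians of the C2 relatives, the SNARE genes and the release regulators. It was close to the medians of the neuron markers, −2.18, and of the 5 mural markers, −2.34, so the closeness was not particular to neurons. The neuron markers themselves ran from −4.72 to 0.27 on the log2 scale. The median of the oligodendrocyte markers was −1.78. The other synaptotagmins (−3.01) and the astrocyte markers (−3.97) had lower medians. These are descriptions with no test of the differences.

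**Figure D5:**
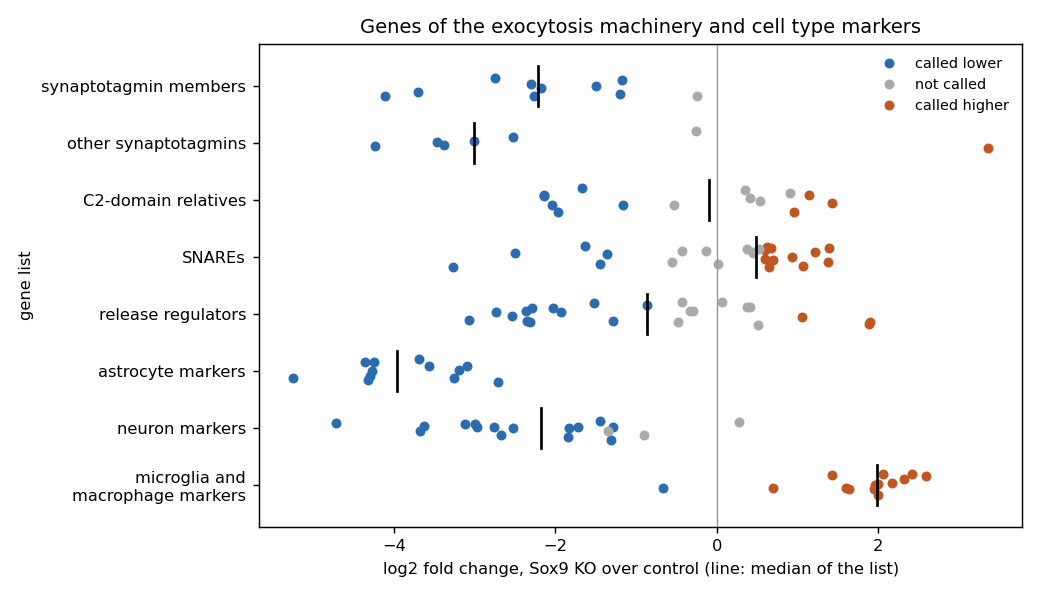
Log2 fold change of Sox9 KO over control of every gene tested in 8 lists, with 1 point per gene coloured by its call (blue lower, orange higher, grey neither) and a black line at each list's median. The synaptotagmins lie mostly below 0, the SNARE genes on both sides of 0 with 5 lower and 11 higher, and the microglia and macrophage markers above 0 except 1.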

How the data were processed

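RNA of TurboRFP-positive OB cells was measured in 6 libraries. Per the labels and methods, the authors mapped the reads with STAR 2.5.0a to mm10, made gene counts with GenomicAlignments and scaled these with DESeq2 1.20.0. The deposited signal values are named RPM, but in each library 100% were whole multiples of 1 step within 0.01 read, equal to the inverse of the median-of-ratios size factor. They are read counts divided by a size factor. The sources used here do not give the annotation or the counting strand.

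The 18413 genes with a mean of at least 1 were compared with limma 3.58.1 (R 4.3.3) on log2(value + 1), with a variance trend, two-sided moderated p-values and Benjamini-Hochberg adjustment over all of them. This scale understates changes of genes with few reads. A call needed an adjusted p of 0.05 and 1.5-fold. The script was tested on simulated data. Alternatives changed the pseudocount, filter, scaling, block, thresholds and libraries, and used edgeR 4.0.16 and DESeq2 1.42.0 on the recovered reads. Lengths and coordinates came from GENCODE vM21 (mm10). Each library was 1 mouse, and no batch is given in the labels.

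The members and lists were chosen with earlier results of these data known. The genes named are Sox9, all synaptotagmins and the 3 genes with the highest mean in each list, of which the markers are given mostly as counts and sums. Vamp2, Vamp7, Cplx4, Tbx21 and A930001C03Rik are named in addition, a choice made with their values in view. Reads on genes were 18242129 to 86906527 per library, 1 read was worth 0.395 to 1.58 normalized counts, and Rn45s took 14.2 to 22.4% of the reads. Protein sequences were not used here. The values of some single genes are not reported here.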

Additional observations from a re-analysis of the deposited data

How the results depend on the processing

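The number of members called lower, 9 as reported, was 7 after quantile normalization, 8 in edgeR, 8 in DESeq2, 8 with the replicate number as a block and 7 to 9 with each library left out, and 9 otherwise. Syt9 lost its call under 5 and Syt13 under 8 of 15 alternatives, and Syt1, Syt4, Syt5, Syt7, Syt11, Syt12 and Syt17 under none of them. The replicate numbers did not pair the libraries, with correlations of −0.05, −0.01 and −0.01 between the deviations of libraries of the same number. The replicate block gave Syt9 an adjusted p of 0.0545 (limma) and changed no other call of a member. After quantile normalization the log2 fold changes of Syt2 and Syt3 turned to 0.60 and 0.52, and without KO replicate 3 that of Syt3 to 0.20, in a leave-one-out range from −0.65 to 0.20. The cause was not tested.

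Among the C2 relatives, 2 were lower and 5 higher after quantile normalization, 1 was higher with equal totals and 5 with no fold limit, and leaving out each library gave 3 to 6 lower and 1 to 3 higher. With equal totals 5 SNARE genes were higher, and with no fold limit 6 release regulators. Quantile normalization moved the median log2 fold change of all genes by 0.27, and equal totals without Rn45s by −0.31. With the longest transcript in place of merged exons, the share of Syt11 was 75.1% in control and 56.1% in KO and that of Syt1 was 16.1% and 23.0%, and 7 members in control and 8 in KO kept their place. Depth limits Syt2, with 1 to 10 reads, and Syt17 in KO, with 4 to 69. Reads were also few for Syt9 in KO (13, 57 and 17), Syt10 in KO (14, 18 and 20), Syt16 in KO (11, 50 and 12) and Syt8 in control (3, 1 and 0).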
